A study of Homo sapiens with 6 samples.

Results

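Genes of the hypoxia response and of glycolysis were followed in MDA-MB-231, a human cell line derived from triple-negative breast cancer and mesenchymal in character. The 39 genes are a list drawn up by known role, but with earlier results of these data known. Their shares set beside those of all genes are therefore descriptions and not tests. A gene was measured where a transcript cluster (the group of probes an array assigns to 1 locus) carried its symbol alone. This held for 35 of the 39, out of 18417 genes measured so in the series. Expression of SLC16A1, SLC16A3 and CA9 was not analysed here, and that of PGAM1 was left out because its clusters also carry PGAM4. RNA came from 3 cultures exposed to 1 µM selamectin for 24 h and from 3 control cultures, with 1 array per culture. Selamectin is a veterinary antiparasitic of the avermectin family, and the series title frames it as a means to inhibit the SIN3 corepressor. The controls are labelled untreated in the sample titles and vehicle-treated in the protocol, and the labels do not settle which holds. They are called untreated here. All cultures were of the same line in the same supplemented DMEM, described as sub-confluent and as independent replicates. Values are log2 expression values, and a log2 change is selamectin minus untreated.

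Cells sense oxygen through HIF, a transcription factor made of an alpha subunit (HIF-1 alpha or HIF-2 alpha) and the stable partner ARNT. With oxygen present, the prolyl hydroxylases of the EGLN family mark the alpha subunit and the VHL ubiquitin ligase removes it, so HIF is controlled mainly at the protein level. When the alpha subunit persists, HIF binds a short element in DNA and raises genes for glucose uptake, glycolysis, lactate production, mitophagy, collagen modification and blood vessel growth. Most glycolytic enzymes are also driven by other factors such as MYC and are abundant in tumour cells with ample oxygen, whereas genes such as NDRG1, EGLN3 and ANKRD37 are commonly used as readouts of HIF itself.

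Most measured genes of glucose uptake and glycolysis were higher on every selamectin array, while HIF readout genes were high on selamectin arrays 1 and 2 and at or below the untreated level on selamectin array 3. Of the 35 measured members, 8 rose and 0 fell at an adjusted p under 0.05 (limma, Benjamini-Hochberg adjustment over all 18417 genes), against 2.41% of all genes higher and 2.28% lower. The 8 were the glucose transporter SLC2A1, the enzymes GPI, TPI1, ENO1, PKM and LDHA, the oxygen sensor EGLN1 and the peptide ADM. At an unadjusted p under 0.05 in limma, 17 were higher, against 11.7% of all genes, and 0 were lower, against 8.21%. The median log2 change over the members was 0.23, and over all genes it was 0.04. Each array measured a whole culture, so a change in every cell and a change in a share of the cells cannot be told apart.

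The count rested on single arrays. It was 3 without selamectin array 1, 1 without selamectin array 2 and 20 without selamectin array 3, where 3.72% of all genes rose. Of the control arrays, leaving out array 1 gave 1, and leaving out array 2 or array 3 gave 2. The number of all genes that rose moved as well, both down and up, from 444 with every array to 685 without selamectin array 3. Its range over these fits is given with the other settings below. Leaving out selamectin array 3 took the share of all genes from 2.41% to 3.72%, and the members from 8 to 20 of 35. SLC2A1 was the only member that kept its call in all 6 of these fits. The other 7 each lost it in more than 1, with a limma adjusted p of up to 0.162. EGLN1, GPI, ENO1 and ADM kept the call only in the fit without selamectin array 3. TPI1, PKM and LDHA kept it in that fit and in at least 1 other. Selamectin array 3 also stood apart over all genes, since the second principal component, with 20.8% of the variance, placed it at -18.5, against scores between -3.97 and 9.83 for the other 5 arrays. RNA quality, scan dates and detection calls were not used here. Of 7 mesenchymal markers, CD44 rose (log2 change 0.42) and SPARC fell (-0.45) in limma, with 3 higher and 2 lower at an unadjusted p under 0.05, and VIM stood between 12.82 and 12.94 on selamectin arrays and between 12.63 and 12.73 on untreated arrays. Of 7 fibroblast markers PDGFRB rose (0.34), with 2 higher and 0 lower at an unadjusted p under 0.05. Limma called 0 of 7 epithelial markers (0 higher and 2 lower at an unadjusted p under 0.05, CDH1 at -0.26 and EPCAM at -0.27), and 0 of 7 endothelial markers (1 higher and 1 lower, with CDH5 at -0.59). It called 0 of 7 leukocyte markers, with 0 at an unadjusted p under 0.05, and the leukocyte marker PTPRC stood between 4.77 and 4.86 on selamectin arrays, against 4.79 to 4.92 on untreated arrays.

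**Figure D1:**
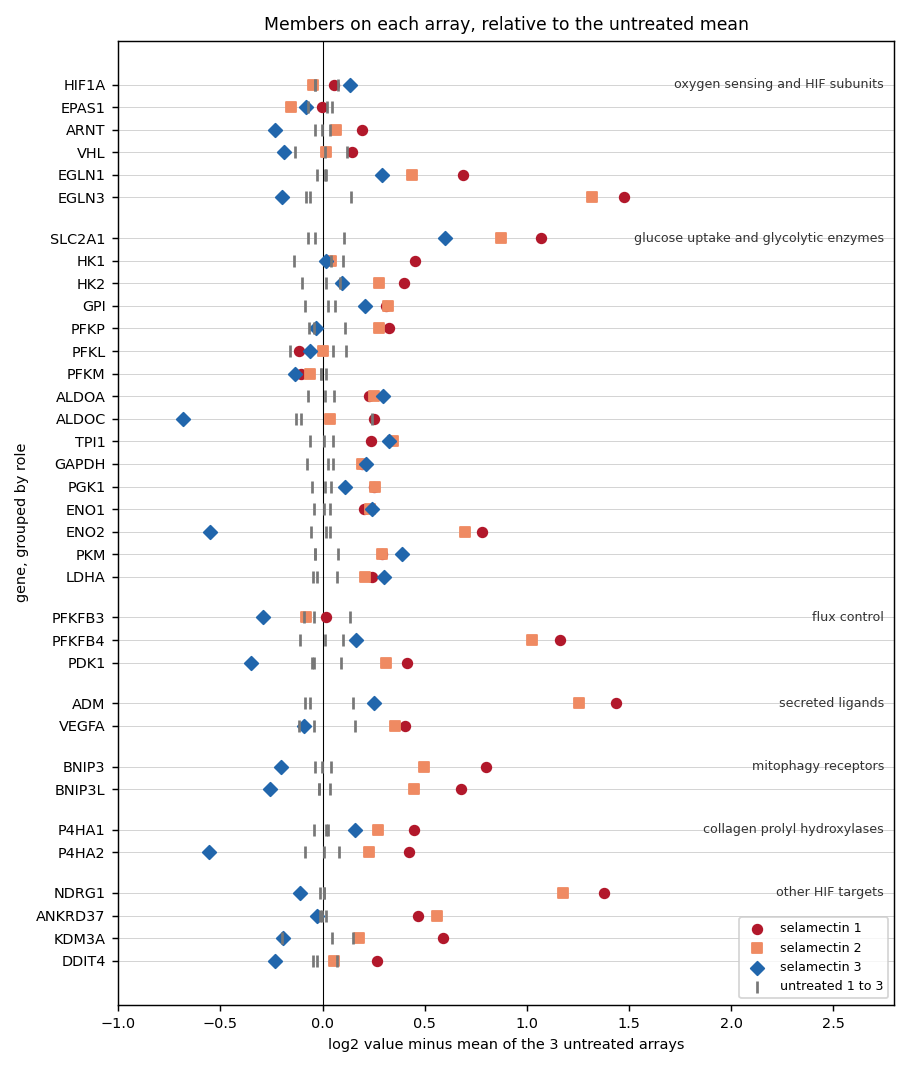
Each row is a gene, grouped by role, and the horizontal axis is its log2 value minus the mean of the 3 untreated arrays. Red circles, orange squares and blue diamonds are selamectin arrays 1, 2 and 3, and grey ticks are untreated arrays. For NDRG1, EGLN3 and BNIP3 the blue diamond lies left of 0 while both other selamectin points lie right of it, and for PKM, LDHA and TPI1 all 3 selamectin points lie right of every tick.

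Upstream sequence was examined because HIF is known to bind the letters ACGTG or GCGTG. The RefSeq promoter table (GRCh38.p14) held 34 of the 39 genes, and the 250 bases before the first listed start of each were searched on both strands. CA9, SLC16A3 and PGAM1, whose expression was not followed, are among the 34. Overlapping matches of 1 motif, as in the palindrome CACGTG, were counted once. ACGTG was present upstream of 14 of the 34 genes (41.2%), and of 18.7% of the 27305 genes in the table. GCGTG was present upstream of 13 (38.2%), and of 31.9% of the genes in the table. A match is a description of letters and not a bound site, and VHL, VEGFA, BNIP3L, NDRG1 and SLC16A1 were not in the table. The list holds known HIF targets by choice, so its higher share of ACGTG tests nothing about these data. The comparison covers every gene of the table, measured here or not. Upstream sequences of 5 genes follow, with matches to either motif on either strand in capitals. LDHA and ENO1 are shown as enzymes raised on all 3 selamectin arrays, and ENO2, BNIP3 and ANKRD37 as genes high on arrays 1 and 2 but not on array 3.
LDHA: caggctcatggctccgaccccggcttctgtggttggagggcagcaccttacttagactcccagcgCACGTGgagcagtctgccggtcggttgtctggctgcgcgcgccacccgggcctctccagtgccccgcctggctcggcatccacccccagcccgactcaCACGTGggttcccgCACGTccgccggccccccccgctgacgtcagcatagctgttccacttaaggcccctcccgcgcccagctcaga
ENO1: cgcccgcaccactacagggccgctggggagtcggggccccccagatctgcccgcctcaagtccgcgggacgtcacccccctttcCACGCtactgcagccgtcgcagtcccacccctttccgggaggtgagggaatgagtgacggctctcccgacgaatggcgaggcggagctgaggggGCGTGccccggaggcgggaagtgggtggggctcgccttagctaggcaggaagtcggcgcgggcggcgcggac
ENO2: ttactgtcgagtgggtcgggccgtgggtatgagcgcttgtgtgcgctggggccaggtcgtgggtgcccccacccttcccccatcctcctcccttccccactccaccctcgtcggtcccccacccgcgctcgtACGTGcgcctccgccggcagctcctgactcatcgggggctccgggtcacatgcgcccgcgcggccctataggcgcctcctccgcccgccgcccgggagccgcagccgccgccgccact
BNIP3: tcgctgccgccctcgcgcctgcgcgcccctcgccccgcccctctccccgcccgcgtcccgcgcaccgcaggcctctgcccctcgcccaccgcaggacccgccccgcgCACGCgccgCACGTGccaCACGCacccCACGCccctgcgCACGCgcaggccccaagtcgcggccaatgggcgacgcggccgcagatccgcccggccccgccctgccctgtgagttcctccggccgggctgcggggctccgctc
ANKRD37: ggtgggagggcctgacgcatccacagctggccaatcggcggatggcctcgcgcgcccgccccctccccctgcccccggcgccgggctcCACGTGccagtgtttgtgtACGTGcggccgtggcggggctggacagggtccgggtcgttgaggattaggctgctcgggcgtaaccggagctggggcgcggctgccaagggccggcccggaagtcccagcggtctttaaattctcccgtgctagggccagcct
These lie at chr11:18394313-18394562 (plus strand), chr1:8878687-8878936 (minus strand), chr12:6914330-6914579 (plus strand), chr10:131981924-131982173 (minus strand) and chr4:185396591-185396840 (plus strand), in the order printed, each read in its gene's direction. The LDHA stretch held 3 ACGTG matches and the ANKRD37 stretch 2. BNIP3 had 1 ACGTG and 4 GCGTG matches, ENO2 had 1 ACGTG, and ENO1 had 2 GCGTG matches and 0 of ACGTG. Neither motif was found in the stretches of SLC2A1, TPI1 and PKM, which rose, or of EGLN3, PDK1 and P4HA2, which were high on arrays 1 and 2 but not on array 3. Only the 250 bases before the first listed start were searched, so motifs elsewhere in or near these genes would be missed.

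Among the members, the gene of a glucose transporter showed the firmest rise. SLC2A1, which encodes the glucose transporter GLUT1, stood at 12.77, 12.57 and 12.30 on the 3 selamectin arrays, against 11.66, 11.63 and 11.80 on the untreated arrays. Every selamectin array was above every untreated one, with array 1 highest and array 3 lowest. The log2 change was 0.85 ± 0.11 (SE, n = 3 per group), or 1.80-fold (limma adjusted p = 0.0045), and the adjusted p was at most 0.028 with any 1 array left out.

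The 5 enzymes that rose between glucose 6-phosphate and lactate did so by small and similar amounts. GPI, which converts glucose 6-phosphate to fructose 6-phosphate, had log2 values of 13.55, 13.56 and 13.44 with selamectin, against 13.15, 13.26 and 13.30 in untreated cells, a rise of 0.28 ± 0.07 (SE; limma adjusted p = 0.040). TPI1, the triose phosphate isomerase, had 13.36, 13.47 and 13.45 with selamectin and 13.06, 13.13 and 13.18 untreated, a rise of 0.30 (adjusted p = 0.026 in limma). A second, dimmer TPI1 cluster differed by 0.33. In both enzymes the groups did not overlap, and selamectin array 3 lay with or close to the other treated arrays.

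Lower glycolysis followed the same course. PKM, the pyruvate kinase, had log2 values of 13.72, 13.72 and 13.81 with selamectin, against 13.39, 13.39 and 13.50 untreated. That is 1.25-fold (log2 change 0.32 ± 0.06 SE, limma adjusted p = 0.018), with selamectin array 3 the highest of all 6 arrays. LDHA, the lactate dehydrogenase subunit that turns pyruvate into lactate, had 14.21, 14.18 and 14.27 with selamectin, against 13.92, 14.04 and 13.94 untreated (1.19-fold, limma adjusted p = 0.036). ENO1, the enolase found in most tissues, had 14.13, 14.16 and 14.17 with selamectin and 13.88, 13.94 and 13.96 untreated (1.17-fold, limma adjusted p = 0.039). For LDHA and ENO1 too the highest selamectin value was on array 3, the array on which the HIF readout genes were low. Many of these enzymes have processed pseudogenes, and whether their clusters share probes with those copies was not examined, so these values are uncertain to that extent.

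Other enzymes were higher on all 3 selamectin arrays without passing the test. GAPDH, the glyceraldehyde phosphate dehydrogenase often used as a loading control, had log2 values of 14.42, 14.41 and 14.43 with selamectin, against 14.14, 14.25 and 14.27 untreated (log2 change 0.20, limma adjusted p = 0.067). ALDOA, the aldolase of muscle and most tumours, had 12.26, 12.28 and 12.33 with selamectin and 11.96, 12.04 and 12.09 untreated (0.26, limma adjusted p = 0.069). PGK1, the phosphoglycerate kinase that makes ATP, had 13.89, 13.89 and 13.75 with selamectin and 13.58, 13.65 and 13.68 untreated (0.21, limma adjusted p = 0.095). HK2, the inducible hexokinase of many tumours, had 11.52, 11.40 and 11.21 with selamectin and 11.21, 11.02 and 11.14 untreated (0.26, limma adjusted p = 0.17). On array 3, HK2 was barely above the highest untreated value, whereas GAPDH and ALDOA were at their own highest.

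Of the 16 measured genes of uptake and enzyme steps, 10 had all 3 selamectin arrays above all untreated arrays. Over all 35 members the number was 14 (40.0%), against 16.0% of all genes, and 1 member, PFKM, had all 3 below, against 9.30% of all genes.

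**Figure D2:**
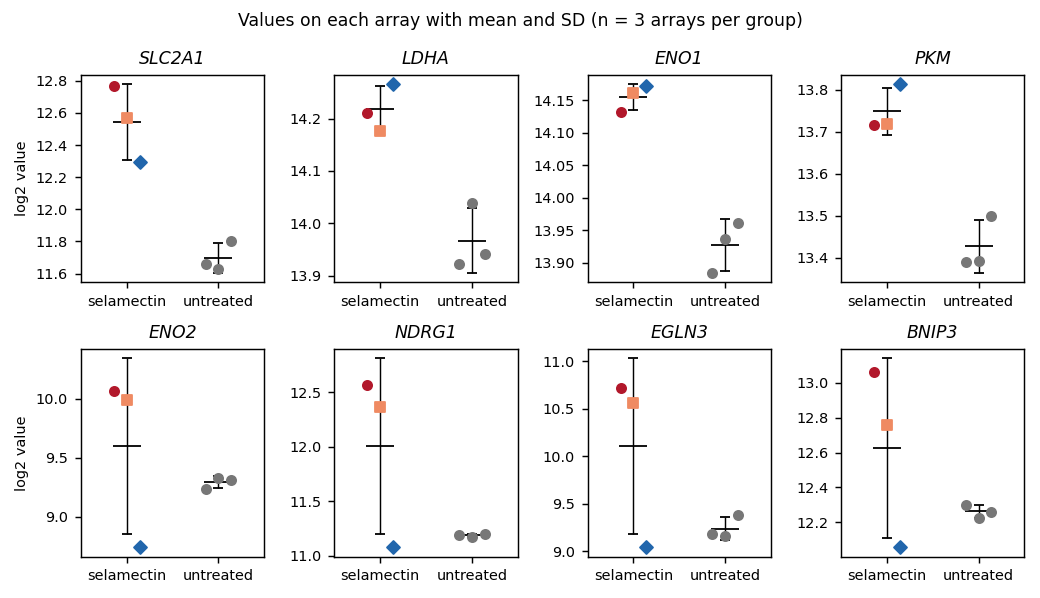
Each panel is 1 gene with its log2 values on selamectin arrays (circle, square and diamond for arrays 1, 2 and 3) and untreated arrays (grey), and each panel has its own vertical scale. Horizontal bars are means and vertical bars SDs over 3 arrays. In the upper row (SLC2A1, LDHA, ENO1, PKM) the groups do not overlap, and in the lower row (ENO2, NDRG1, EGLN3, BNIP3) the diamond lies below every untreated point.

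Isozymes of the same step differed in their course across arrays. ENO2, the neuronal enolase and a known HIF target, had log2 values of 10.07, 9.99 and 8.74 with selamectin, against 9.23, 9.33 and 9.31 untreated. Arrays 1 and 2 were above every untreated array and array 3 was below every one, so the change of 0.31 had a 95% interval from -0.29 to 0.91 (limma adjusted p = 0.57). Its paralogue ENO1 had an SD of 0.02 over the same 3 selamectin arrays, against 0.75 for ENO2. ALDOC, the brain aldolase, had 11.13, 10.91 and 10.19 with selamectin and 10.74, 11.12 and 10.77 untreated, with array 3 lowest of all, and the most negative change of the members with all 6 arrays (-0.13, limma adjusted p = 0.75). The sign turned without array 3, to 0.14 (limma adjusted p = 0.52), and with array weights, to 0.09 (0.68). Neither isozyme contrast was tested as a difference between genes.

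The phosphofructokinases, which commit sugar to glycolysis, showed no call. PFKP, the platelet form, was at 12.18 and 12.13 on selamectin arrays 1 and 2 but at 11.82 on array 3, inside the untreated range of 11.78 to 11.96 (log2 change 0.19, limma adjusted p = 0.33). PFKL, the liver form, changed by -0.06 (95% interval -0.27 to 0.15), and PFKM, the muscle form, by -0.10 (-0.25 to 0.05), both without passing. PFKM lay slightly lower on all 3 selamectin arrays. HK1, the widely expressed hexokinase, changed by 0.17 (95% interval -0.10 to 0.44), with array 1 alone outside the untreated range.

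Enzymes that steer flux into or away from glycolysis split by array. PFKFB4, which makes the activator of phosphofructokinase and is a HIF target, had log2 values of 9.14, 9.00 and 8.14 with selamectin, against 7.87, 7.99 and 8.08 untreated. Array 3 was just above the highest untreated array, and the log2 change of 0.78 did not pass (limma adjusted p = 0.057). PDK1, the kinase that restrains the oxidation of pyruvate in mitochondria, had 11.37, 11.27 and 10.61 with selamectin and 10.91, 10.92 and 11.05 untreated (0.12, limma adjusted p = 0.71). PFKFB3, a relative of PFKFB4, had 9.74, 9.64 and 9.43 with selamectin and 9.63, 9.68 and 9.85 untreated (-0.12, limma adjusted p = 0.58). PFKFB3 thus did not share the high values of PFKFB4 on arrays 1 and 2.

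Oxygen sensing genes divided into the core subunits, whose differences were small and did not pass, and the hydroxylases that HIF itself induces. HIF1A, the gene of HIF-1 alpha, had log2 values of 12.51, 12.41 and 12.59 with selamectin, against 12.53, 12.42 and 12.42 untreated (log2 change 0.05, 95% interval -0.12 to 0.21). EPAS1, the gene of HIF-2 alpha, had 11.61, 11.46 and 11.53 with selamectin and 11.55, 11.64 and 11.66 untreated (-0.08, -0.25 to 0.10). The groups overlapped for both, and transcript levels do not report on the stability of either protein. ARNT had 11.43, 11.31 and 11.01 with selamectin and 11.21, 11.24 and 11.28 untreated, and VHL had 9.80, 9.68 and 9.47 with selamectin and 9.78, 9.53 and 9.68 untreated. Both were lowest on selamectin array 3, with changes of 0.01 and -0.01.

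EGLN1, the main oxygen sensor of most cells, rose. It stood at 10.56, 10.31 and 10.17 with selamectin, against 9.85, 9.89 and 9.89 untreated, with no overlap (log2 change 0.47 ± 0.11 SE, 1.39-fold, limma adjusted p = 0.034). The call was lost when any array other than selamectin array 3 was left out (limma adjusted p up to 0.13). EGLN3, a strongly HIF-induced relative, had 10.72, 10.56 and 9.04 with selamectin, against 9.18, 9.16 and 9.38 untreated. Its arrays 1 and 2 were more than 1 log2 unit above every untreated array and array 3 was below all of them, so the mean change of 0.86 did not pass (limma adjusted p = 0.18). Leaving array 3 out, the change was 1.40 ± 0.11 (limma adjusted p = 9.3e-05).

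Secreted factors included the member with the largest mean change. ADM, the vasodilator peptide adrenomedullin, had log2 values of 11.13, 10.95 and 9.94 with selamectin, against 9.63, 9.60 and 9.84 untreated. Array 3 was only just above the highest untreated array, and the rise of 0.98 ± 0.24 (SE; limma adjusted p = 0.043) lost its call when any array other than selamectin array 3 was left out (adjusted p up to 0.16). VEGFA, the vascular endothelial growth factor, had 11.00, 10.94 and 10.50 with selamectin and 10.75, 10.47 and 10.55 untreated (0.22, limma adjusted p = 0.39). Untreated array 1 reached into the gap between selamectin arrays.

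HIF targets of the mitochondrion and of collagen were high on arrays 1 and 2 and mostly low on array 3. BNIP3, a receptor that sends mitochondria to autophagy, had log2 values of 13.06, 12.76 and 12.06 with selamectin, against 12.30, 12.23 and 12.26 untreated. BNIP3L, its relative NIX, had 12.43, 12.20 and 11.50 with selamectin and 11.73, 11.79 and 11.73 untreated. Array 3 lay below every untreated array for both, and neither mean change passed (0.36 and 0.29, limma adjusted p = 0.32 and 0.41). P4HA1, a catalytic subunit of collagen prolyl hydroxylase, was above all untreated arrays on every selamectin array, with 11.45, 11.27 and 11.15 in selamectin cultures against 11.02, 10.95 and 11.01 in untreated ones (0.29, limma adjusted p = 0.099). P4HA2, the alternative subunit, had 10.83, 10.64 and 9.85 with selamectin and 10.41, 10.32 and 10.49 untreated (0.03, limma adjusted p = 0.95).

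The remaining targets were highest on array 1 or array 2 and lowest, among the selamectin arrays, on array 3. NDRG1, a stress protein long used as a hypoxia marker, had log2 values of 12.57, 12.37 and 11.08 with selamectin, against 11.20, 11.18 and 11.20 untreated. The untreated arrays spread by an SD of 0.01 and the selamectin arrays by 0.81, and the mean change of 0.82 did not pass (limma adjusted p = 0.14). ANKRD37, an ankyrin repeat protein induced by HIF, had 8.62, 8.72 and 8.13 with selamectin and 8.17, 8.14 and 8.16 untreated (0.33, limma adjusted p = 0.21). KDM3A, a histone H3 demethylase induced by HIF, had 9.81, 9.40 and 9.03 with selamectin and 9.37, 9.03 and 9.27 untreated (0.19, limma adjusted p = 0.58). DDIT4, the mTOR inhibitor REDD1 that also answers to other stresses, had 12.57, 12.36 and 12.07 with selamectin and 12.27, 12.26 and 12.37 untreated (0.03, limma adjusted p = 0.91).

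Counted over all 35 members, selamectin array 1 was above every untreated array for 30 genes, where 37.8% of all genes were, and below for 1, where 19.3% were. Array 2 was above for 26, where 43.7% of all genes were, and below for 3, where 20.5% were. Array 3 was above for 15 and below for 15, where the shares of all genes were 30.1% and 27.3%. Of the 15 members above on array 3, 10 belonged to uptake and enzyme steps. Of the 13 measured members outside the enzyme steps and oxygen sensing, 3 were above on array 3 and 8 were below. In 12 members (34.3%) arrays 1 and 2 were both above all untreated arrays and array 3 was not, against 11.4% of all genes. Selamectin array 1 was above array 2 and array 2 above array 3 for 22 members (62.9%), an order held by 23.7% of all genes. The spread between selamectin arrays exceeded that between untreated arrays in 28 of the 35 members (80.0%) and in 48.9% of all genes, and its median SD was 0.20 in selamectin arrays, against 0.07 in untreated arrays. Over all genes these medians were both 0.10.

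**Figure D3:**
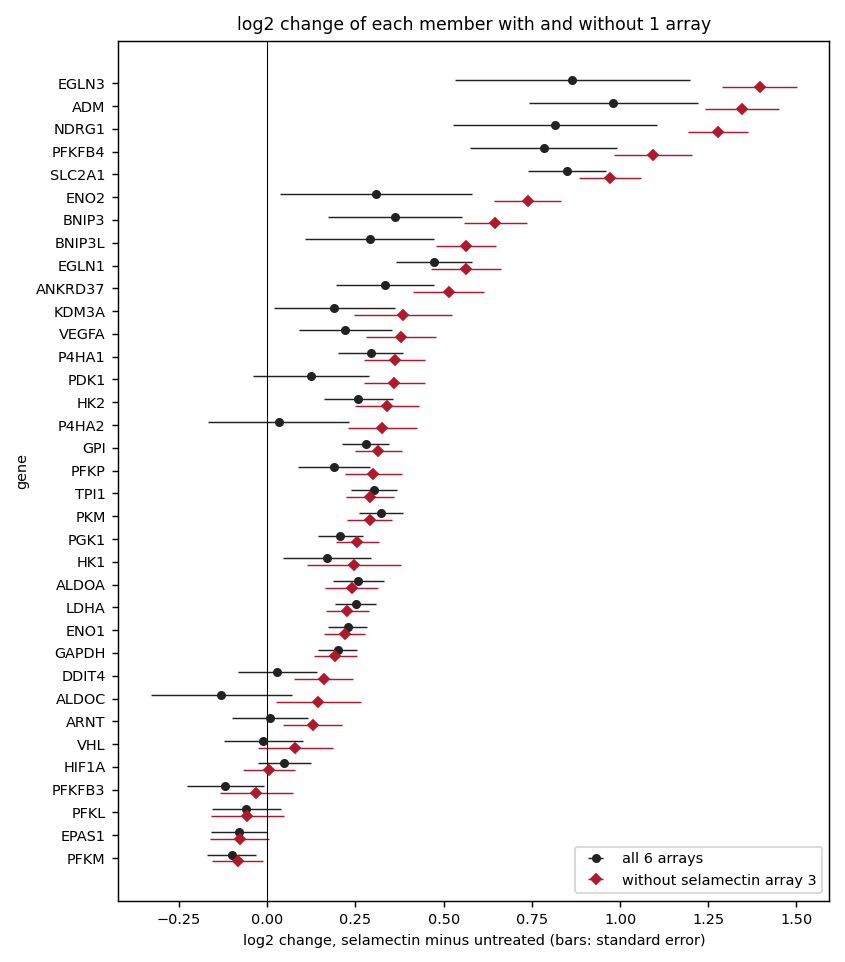
Points are log2 changes, selamectin minus untreated, with standard errors, for all 6 arrays (black circles) and without selamectin array 3 (red diamonds), sorted by the fit without that array. EGLN3, ADM and NDRG1 lie between 1.28 and 1.40 there, with narrower bars, while LDHA, ENO1, GAPDH and HIF1A hardly move.

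Without selamectin array 3, 20 members rose and 0 fell in limma, against 3.72% and 2.52% of all genes. All 8 members called with every array were among the 20. The largest rises then were those of EGLN3 (2.63-fold), ADM (2.54-fold), NDRG1 (2.42-fold), PFKFB4 (2.13-fold) and SLC2A1 (1.96-fold). ENO2 rose 1.67-fold (adjusted p = 0.0020 in limma), BNIP3 1.57-fold, BNIP3L 1.48-fold and ANKRD37 1.43-fold. VEGFA, P4HA1, PDK1, HK2 and PGK1 also passed, with log2 changes of 0.38, 0.36, 0.36, 0.34 and 0.25, while HIF1A, EPAS1, PFKFB3 and PFKL did not, at 0.01, -0.08, -0.03 and -0.06. That fit compares 2 selamectin arrays with 3 untreated ones. It is given beside the fit of all arrays and not in its place, since the array left out was seen to differ.

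Further genes of the pathway, taken from lists that exclude the members, gave a share of rises close to that of all genes. Of 81 measured, 2 rose and 0 fell past the threshold in limma, against 2.41% and 2.28% of all genes. Unadjusted p-values under 0.05 were seen for 12 higher and 8 lower genes, against 11.7% and 8.21% of all genes. TIGAR, a phosphatase that lowers the activator of phosphofructokinase, had log2 values of 9.29, 9.27 and 8.91 with selamectin, against 8.56, 8.27 and 8.69 untreated (0.65, limma adjusted p = 0.022). MLX, the partner of the glucose sensor MondoA, had 11.32, 11.33 and 11.27 with selamectin and 10.61, 10.96 and 10.85 untreated (0.50, limma adjusted p = 0.019). TXNIP, a glucose-responsive MondoA target that restrains glucose uptake, had 13.07, 12.97 and 12.10 with selamectin, against 13.32, 13.31 and 13.36 untreated. TXNIP was lower on every selamectin array, most on array 3, but its change of -0.62 did not pass (limma adjusted p = 0.10).

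The 35 further HIF targets in that list gave 0 calls in limma with all arrays, against 2.41% of all genes higher and 2.28% lower. Unadjusted p-values under 0.05 were seen for 5 higher and 1 lower genes, against 11.7% and 8.21% of all genes. In 21 of them (60.0%) arrays 1 and 2 were above every untreated array and array 3 was not, where 11.4% of all genes had this course. Array 3 was below every untreated array in 21 (60.0%), where 27.3% of all genes were. Without that array 12 rose and 0 fell in limma, against 3.72% and 2.52% of all genes. LOX, the collagen crosslinking oxidase, and STC1, a secreted glycoprotein, were chosen after their values were seen. LOX had log2 values of 11.19, 10.87 and 9.39 with selamectin, against 10.18, 10.08 and 10.06 untreated, and STC1 had 7.75, 7.22 and 6.31 with selamectin, against 6.47, 6.21 and 6.52 untreated. The 10 further oxygen sensing genes gave 0 calls in limma, and 0 at an unadjusted p under 0.05.

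**Figure D4:**
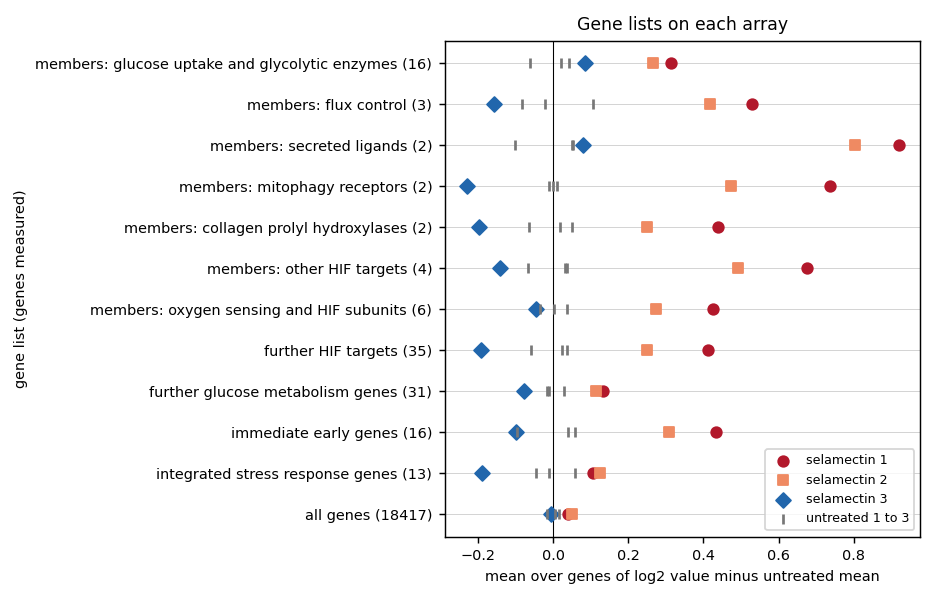
The horizontal axis is the mean over a list's genes of the log2 value minus the untreated mean, with markers for each array as in the plot of members, and the number of genes measured in parentheses. Selamectin array 3 lies right of every untreated tick for uptake and glycolytic enzymes and for secreted ligands, and among the ticks for all genes. For every other list it lies left of them, only just so for immediate early genes. These lists include the mitophagy receptors, the further HIF targets and the 31 further glucose metabolism genes (-0.08, against -0.02 to 0.03 on untreated arrays).

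Immediate early genes, which answer within minutes to serum, stress or handling, followed the same array order in their mean. Of the 16 measured, 11 held the order from array 1 down to array 3, against 23.7% of all genes. Limma called 0 of the 16 with all arrays, against 2.41% of all genes higher and 2.28% lower. Their mean over 16 genes stood at 0.43, 0.31 and -0.10 on selamectin arrays 1, 2 and 3, relative to the untreated mean, and between -0.10 and 0.06 on untreated arrays. Over the members the corresponding means were 0.46, 0.35 and -0.02, and between -0.03 and 0.04 on untreated arrays. The part of this shared difference between arrays in the members' values was not tested.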

How the data were processed

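RNA of 6 MDA-MB-231 cultures was measured on Affymetrix whole-transcript arrays. The table the authors deposited holds 1 log2 value for each of 33297 transcript clusters per array, and its log base is taken from the range of values, since no header states it. The submitters' processing notes name RMA, Affymetrix Expression Console and Transcriptome Analysis Console, without version or setting. RMA as commonly run normalizes arrays together, which removes a shift shared by all genes and compresses changes of dim genes. Array medians lay between 7.47 and 7.51. Symbols came from the platform annotation. Of the clusters, 19460 had 1 symbol, 1754 had several and 12083 had no entry. The cluster with the highest mean stood for a gene with several, which left 18417 genes. Genome coordinates are those of the RefSeq promoter table.

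The fit was limma 3.58.1 in R 4.3.3 (lmFit and eBayes with an intensity trend), two-sided and with no block for the replicate number. P-values were adjusted over all genes by Benjamini-Hochberg, and 0.05 was the threshold. The fit was also checked on simulated arrays, whose settings and outcome are not reported here, so nothing rests on that check. Means are over 3 arrays per group, and the number of arrays limits the precision (median SE of a log2 change 0.094). The titles' replicate numbers were not taken as pairs, though a check on 3 arrays per group cannot exclude a pairing. Members, lists, rules and tests were chosen with earlier results of these data known. All members are named, and values on every array are given for those past the threshold, for a fixed set and for the extremes. From the further pathway genes, those past the threshold and TXNIP are named by rule, and LOX and STC1 were added after their values were seen. The alternatives were leaving out each array, a replicate block, median centring, a filter on dim genes, eBayes without trend or robust, array weights, and all clusters in the fit. The marker lists for mesenchymal, epithelial, fibroblast, endothelial and leukocyte cells had mean shifts between -0.06 and 0.10 on every selamectin array.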

Additional observations from a re-analysis of the deposited data

How the results depend on the processing

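The count of members that rose, 8 with all arrays, was 3 with the replicate block and 4 with eBayes without trend. All-gene counts are not given here for those settings. It was 20 with array weights, where 1822 of all genes rose, and 1 with all transcript clusters in the fit, where 104 clusters rose. It lay between 1 and 20 with 1 array left out. No member fell in any of these settings. With array weights the weight of untreated array 3 was 5.11, against 0.45 to 1.22 for the other arrays, so that fit leans on 1 array. Only SLC2A1 was past the threshold in every setting. The median log2 change over the members was 0.23, and lay between 0.15 and 0.30 in all settings. The further pathway genes that rose, 2 with all arrays, were 14 with array weights, 0 with all clusters, and between 0 and 16 with 1 array left out. Those that fell, 0 with all arrays, were 5 with array weights and between 0 and 2 with 1 array left out. Over all genes, 444 rose and 420 fell. With array weights these were 1822 and 1464, with all clusters 104 and 145, and with 1 array left out between 76 and 685 and between 100 and 464. No called change of a member turned its direction. Same-numbered arrays of the groups had deviations correlated at -0.01, 0.24 and -0.14 across genes, so the numbers were not taken as pairs. Array 2 of each group was closest to its own number, and arrays 1 and 3 of selamectin were not.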

Other observations

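Genes of the integrated stress response, a shared programme answering amino acid shortage and misfolded protein, were mostly lowest, among the selamectin arrays, on array 3 (10 of 13 genes, 76.9%, against 48.1% of all genes). Their mean stood at 0.11, 0.12 and -0.19 on selamectin arrays 1, 2 and 3, relative to the untreated mean. With all arrays 0 of 13 passed in limma, against 2.41% of all genes higher and 2.28% lower. Unadjusted p-values under 0.05 were seen for 3 higher and 4 lower genes, against 11.7% and 8.21% of all genes. Without selamectin array 3, 3 rose and 0 fell, against 3.72% and 2.52% of all genes. DDIT3, the stress factor CHOP, had log2 values of 10.39, 10.07 and 9.59 with selamectin, against 9.35, 9.40 and 9.48 untreated (log2 change 0.61, limma adjusted p = 0.061). ATF4, the factor at the centre of the programme, had 12.38, 12.45 and 12.27 with selamectin, against 12.61, 12.49 and 12.60 untreated (-0.20, limma adjusted p = 0.17). ASNS, the asparagine synthetase that ATF4 drives, had 10.38, 10.53 and 9.85 with selamectin and 10.86, 10.48 and 10.79 untreated (-0.46, limma adjusted p = 0.14).

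Among immediate early genes, FOS had log2 values of 12.00, 11.50 and 10.88 with selamectin, against 10.41, 10.61 and 10.79 untreated (0.86, limma adjusted p = 0.051). EGR1 had 11.61, 11.44 and 9.77 with selamectin and 10.18, 9.61 and 10.88 untreated (0.72, limma adjusted p = 0.38), so its untreated arrays also lay far apart. These genes were chosen after their values were seen.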
